A study of Mus musculus with 4 samples.

Results

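The genes described are those of the interleukin-1 (IL-1) receptor family with its decoys and its natural antagonist, 9 genes in all: Il1r1, Il1r2, Il1rn, Il1rap, Il1rl1, Il1rl2, Il18r1, Il18rap and Sigirr. They were chosen by name, and for each the probe set annotated with that symbol alone was taken, the one with the highest mean where several existed. A probe set was named for 7 of the 9 genes, out of 19938 genes named in this way. Il1r1 and Il1rl1 (the ST2 receptor) were not analysed here. All 7 passed the filter on dim genes, among 13956 genes tested.

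The values came from 4 Affymetrix arrays of regulatory T (Treg) cells, the Foxp3-expressing CD4 T cells that hold immune responses in check. The wild-type group held 2 arrays of the genotype Cyld+/+ Foxp3-yfp-cre, and the knockout group 2 arrays of the genotype Cyld fl/fl Foxp3-yfp-cre. Both groups carried the transgene or allele that expresses yellow fluorescent protein and Cre recombinase from Foxp3, so Cre was present in the controls too and removal of Cyld was directed to Foxp3-expressing cells. All mice were of C57Bl6 background, aged 6 to 8 weeks and kept pathogen-free, and YFP-positive cells were sorted. The labels give the tissue as spleen with lymph nodes in one field and as spleen in another. They do not say whether replicates were separate mice, so p-values rest only on the spread between these arrays, which may be technical. For the calls given below, that spread was pooled over all genes tested and not taken gene by gene. The comparison asks how transcripts of Treg cells change when they lack CYLD, a deubiquitinase that limits NF-kB signalling. Values are intensities on a linear scale, which ran from 26.6 to 7205 over all probe sets, with array medians of 99.0 to 105. Cyld itself read 524 and 502 in wild type against 284 and 218 in knockout cells, lower on both knockout arrays. The sources used here do not give which part of the gene was deleted, so its probe set may lie outside that part.

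Receptors of this family work in pairs. A ligand-binding chain (IL1R1 for IL-1, ST2 for IL-33, IL1RL2 for IL-36, IL18R1 for IL-18) recruits a co-receptor, IL1RAP for the first 3 of these and IL18RAP for IL-18, and the joined cytoplasmic TIR domains call in MyD88 and IRAK kinases, which leads to NF-kB activation. The family also holds brakes. IL1R2 binds IL-1 and IL1RAP but has no TIR domain and so carries no signal, IL1RN is a soluble antagonist that occupies IL1R1, and SIGIRR is a TIR-containing receptor that damps signalling by its relatives. In Treg cells ST2 is known from tissue-resident and activated cells, the IL-18 receptor from cells with Th1 features, and IL1R2 from activated and follicular regulatory cells.

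Il1r2, the decoy receptor, and Il18rap, the signalling co-receptor for IL-18, were higher in the knockout cells, and the other 5 measured genes did not pass the test. That is 2 of 7 genes, both higher, at a limma adjusted p under 0.05, where 8.30% of all genes tested were called, 4.79% as higher and 3.50% as lower. The median log2 fold change was 0.38 over the 7 genes and -0.02 over all genes tested. Fold changes are knockout over wild type on the log2(intensity + 1) scale. Changes of dim genes may be understated, because the values may include background, which was not measured. The genes were picked with earlier results of these arrays known, so these counts describe the family and are not an independent test of it.

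Il1r2 gave intensities of 312 and 301 in wild type against 1747 and 1585 in knockout cells. The groups were far apart, with a gap many times the spread within either of them. The log2 fold change was 2.44 ± 0.17 (SE), a 5.42-fold rise with a 95% interval of 4.30 to 6.82, and a limma adjusted p of 1.39e-43. It was the 12th largest rise among the 13956 genes. The rise was 2.51 on knockout replicate 1 and 2.37 on knockout replicate 2, each measured against the wild-type mean.

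Il18rap read 135 and 114 in wild type against 311 and 222 in knockout cells. Both knockout arrays were above both wild-type arrays, and the knockout arrays differed from each other more than the wild-type arrays did. The mean went from 125 ± 14.8 to 267 ± 62.3 (SD, n = 2), a log2 fold change of 1.08 ± 0.17 (SE, limma adjusted p = 2.54e-08), or 2.11-fold with a 95% interval of 1.68 to 2.66. That SE and interval use a variance shared by all genes tested, so they do not reflect the wider spread of these knockout arrays. Il18rap ranked 89 among all genes tested by size of rise. With any single array left out, the log2 fold change was 0.84 to 1.32 for Il18rap and 2.37 to 2.51 for Il1r2, past the threshold each time. Such fits leave 1 array in a group and assume that it varies like the other group, with the variance pooled over all genes, so their p-values add little beyond the fold changes.

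**Figure D1:**
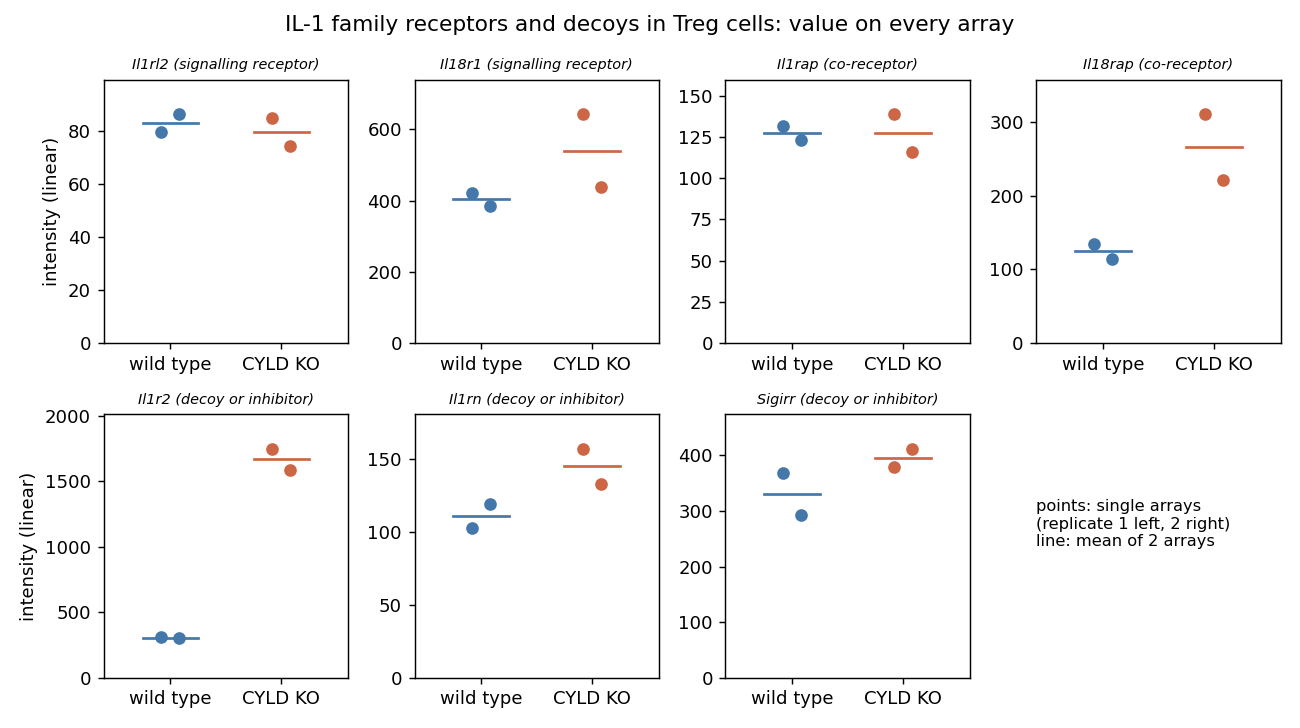
Intensity (linear scale, each panel with its own axis from 0) of the 7 measured genes on every array, with wild type in blue and CYLD knockout in orange; points are single arrays and lines are means of 2. Il1r2 stands at 1747 and 1585 in the knockout against 312 and 301 in wild type, Il18rap at 311 and 222 against 135 and 114, and the arrays of Il1rl2 and Il1rap overlap between groups.

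The promoters of these 2 genes are shown because they were the ones called. Each window runs from 250 bases before to 50 bases after an annotated start, on the plus strand of chromosome 1 in GRCm38.p6, from RefSeq: chr1:40085843-40086142 for Il1r2 and chr1:40515112-40515411 for Il18rap. Capitals mark matches, on either strand, to 5 motifs: the kappaB consensus of NF-kB, GGAANTTCC (a palindrome that resembles part of a kappaB element), the AP-1 motif TGANTCA, the Runx motif TGTGGT and the E-box CACGTG.
Il1r2: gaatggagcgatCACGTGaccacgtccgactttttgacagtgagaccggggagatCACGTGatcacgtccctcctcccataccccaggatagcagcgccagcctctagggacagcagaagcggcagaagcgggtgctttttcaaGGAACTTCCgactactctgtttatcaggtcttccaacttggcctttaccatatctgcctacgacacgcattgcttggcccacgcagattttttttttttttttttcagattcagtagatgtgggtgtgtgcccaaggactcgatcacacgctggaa
Il18rap: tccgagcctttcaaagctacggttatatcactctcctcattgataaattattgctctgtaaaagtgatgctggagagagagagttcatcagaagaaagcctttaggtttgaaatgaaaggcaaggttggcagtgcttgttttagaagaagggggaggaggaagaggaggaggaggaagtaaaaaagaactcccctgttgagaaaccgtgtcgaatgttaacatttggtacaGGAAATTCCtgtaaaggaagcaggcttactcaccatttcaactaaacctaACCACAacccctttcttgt

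The Il1r2 window held 2 E-boxes and 1 GGAANTTCC match, and the Il18rap window 1 GGAANTTCC match and 1 Runx match on the minus strand. Neither held the kappaB consensus or the AP-1 motif. Of 32851 promoter windows of the same length, 7.15% held the E-box, 0.928% GGAANTTCC, 16.8% the Runx motif, 7.81% the AP-1 motif and 4.51% the kappaB consensus. GGAANTTCC was added after some of these windows had been read, so its matches are a description only. Among the other members, the Il1rl2 window, whose gene did not pass the test, and 1 of 2 windows of Il1rl1, not analysed here, also held 1 GGAANTTCC match each.

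The other brakes of the family were measured at smaller differences. Il1rn, the soluble antagonist, read 103 and 119 in wild type against 157 and 133 in knockout cells. Its arrays did not overlap between groups, but the log2 fold change of 0.38 (95% interval 0.05 to 0.71) did not pass (limma adjusted p = 0.173). Sigirr, the inhibitory receptor, read 369 and 292 in wild type against 379 and 412 in knockout cells, where the lower knockout array was close to the higher wild-type one. Its log2 fold change was 0.27, with a 95% interval of -0.06 to 0.60 and a limma adjusted p of 0.381. For both genes the intervals leave room for a rise of up to 1.64-fold and 1.52-fold.

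Among the signalling receptors, Il18r1, the IL-18-binding partner of Il18rap, read 420.3 and 386 in wild type against 643 and 438 in knockout cells. The knockout arrays were both above the wild-type arrays but far apart, with replicate 1 at a log2 difference of 0.67 from the wild-type mean and replicate 2 at 0.12. The log2 fold change of 0.40 (95% interval 0.06 to 0.73) did not pass (limma adjusted p = 0.146). Without knockout replicate 2 it passed (limma adjusted p = 0.00669), so the call for Il18r1 turns on that array. Il1rl2, the IL-36 receptor, read 79.5 and 86.3 in wild type against 84.8 and 74.2 in knockout cells. Its arrays overlapped, and its log2 fold change was -0.06 with a 95% interval of -0.39 to 0.27 (limma adjusted p = 0.882). These values lie close to the filter on dim genes, so a change of Il1rl2 may not have been measurable here.

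Il1rap, the co-receptor shared by the IL-1, IL-33 and IL-36 receptors and also bound by the decoy IL1R2, read 132 and 123 in wild type against 139 and 116 in knockout cells. The groups overlapped and their means were nearly equal, 128 ± 6.37 and 127 ± 16.6 (SD, n = 2). The log2 fold change of -0.01 had a 95% interval of -0.34 to 0.33 (limma adjusted p = 0.991). A rise of the intensity above 1.25-fold, such as the 2.11-fold of Il18rap, lay outside the interval. That interval uses the standard error shared by all genes. The intensities lie near the array medians of 99.0 to 105, where a change of the transcript may read smaller than it was. Within arrays, the log2 ratio of Il1r2 to Il1rap went from 1.23 and 1.29 in wild type to 3.64 and 3.76 in the knockout. The decoy and the co-receptor it can bind thus changed unequally, by 2.44 on the log2 scale. An exact two-sided permutation test of this ratio over the 4 arrays gave p = 0.333, the smallest p that 2 against 2 arrays can give. A ratio of 2 probe sets shows unequal change only and not how much of each transcript there was.

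**Figure D2:**
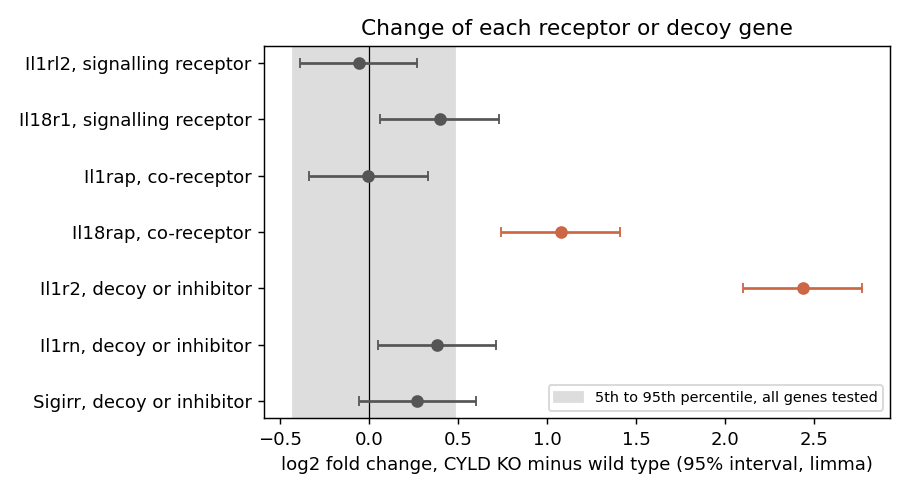
Log2 fold change of each gene (knockout minus wild type, horizontal axis) with its 95% interval from limma; the 2 genes past the threshold are orange and the grey band runs from the 5th to the 95th percentile of all genes tested, -0.43 to 0.48. Il1r2 at 2.44 and Il18rap at 1.08 lie outside the band, and the other 5 genes lie within it.

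The 7 genes did not move as a block. Both knockout arrays were above both wild-type arrays in 5 of 7 genes, against 22.5% of all genes tested, and below them in 0 of 7, against 26.2%. Between the knockout arrays, replicate 2 was lower than replicate 1 in 6 of 7 genes, all but Sigirr; over all genes tested it was lower in 53.8%. Between the wild-type arrays, replicate 2 was lower in 5 of 7 genes, against 52.1% of all genes tested. Between the knockout arrays the gap was largest in the IL-18 receptor pair, at a log2 difference of -0.55 for Il18r1 and -0.48 for Il18rap, and was -0.14 for Il1r2. Knockout replicate 2 also stood apart in other genes, with cyclin A2 (Ccna2) at 1264 against 607 on knockout replicate 1 and Y-linked Kdm5d at 127 against 268; the part of that difference in these values was not tested.

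**Figure D3:**
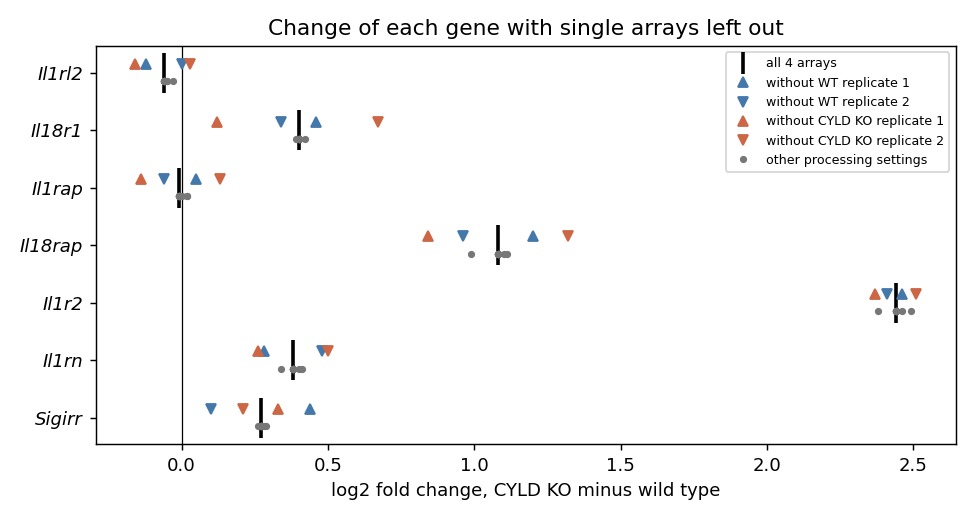
Log2 fold change (horizontal axis) of the 7 genes with all 4 arrays (black bar), with single arrays left out (triangles) and under the other processing settings (grey dots). Il1r2 stays between 2.37 and 2.51 when an array is left out, while Il18r1 runs from 0.12 without knockout replicate 1 to 0.67 without knockout replicate 2.

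Of the 9 genes, 6 lie side by side on chromosome 1, in the order Il1r2, Il1r1, Il1rl2, Il1rl1, Il18r1 and Il18rap, with no other protein-coding gene between them in the RefSeq table. The 2 genes that rose stand at the opposite ends of this run. Il1rl2, in its middle, was at 79.5 to 86.3 in wild type and within that range or below it in the knockout. Il18r1, inside the run next to Il18rap, was above the wild-type mean by 0.67 and 0.12 (log2) on the knockout arrays and was not called. The other inner genes, Il1r1 and Il1rl1, carried no value, so the pattern inside the run is known only in part. Map4k4, a kinase gene next to Il1r2 on the outer side, read 513 and 511 in wild type against 387 and 380.3 in knockout cells, a log2 fold change of -0.42 that did not pass (limma adjusted p = 0.121). Next to Il18rap, Slc9a4 and Slc9a2, which encode sodium-proton exchangers, were below the filter, and Mfsd9 had a log2 fold change of -0.06. None of the 3 tested neighbours on either side (Rfx8, Map4k4 and Mfsd9) was called by limma.

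**Figure D4:**
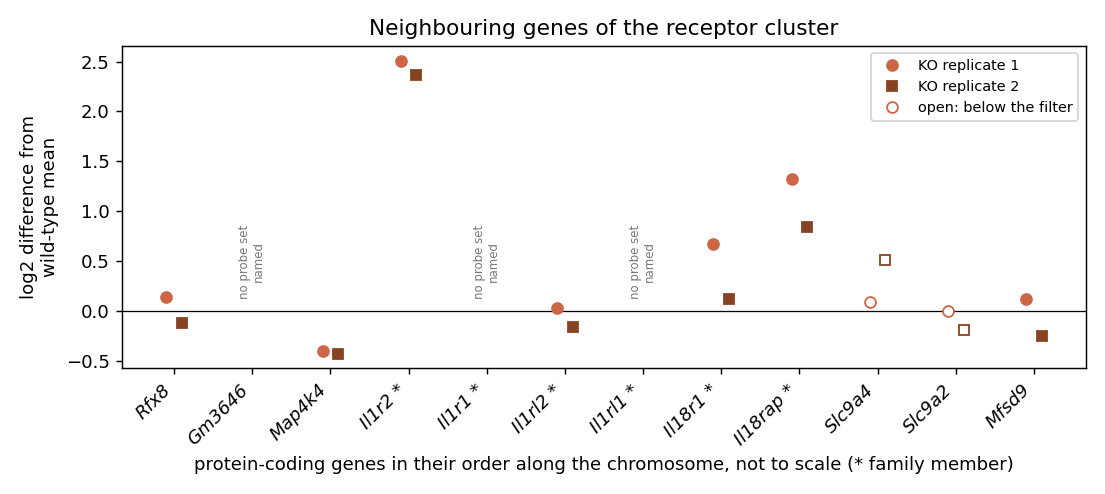
Log2 difference of each knockout array from the wild-type mean (vertical axis) for 9 of 12 neighbouring protein-coding genes in chromosomal order, family members starred; Gm3646, Il1r1 and Il1rl1 had no probe set named and carry no value; circles are knockout replicate 1, squares replicate 2, and open symbols genes below the filter. Il1r2 and Il18rap stand at 0.84 or higher on both arrays, at both ends of the receptor run, while Map4k4, Il1rl2 and Mfsd9 lie between -0.43 and 0.12. Il18r1, inside the run, stands at 0.67 on replicate 1 and 0.12 on replicate 2.

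Most ligands of these receptors were below the filter on dim genes, and 0 were called by limma in either direction. Of 10 listed ligands and binding proteins, 9 were measured and 2 tested, Il33, the ST2 ligand, with a log2 fold change of -0.22, and Il18bp, the soluble IL-18 binding protein, with -0.19. The 7 below the filter, among them Il1a, Il1b and Il18, read between 42.2 and 87.5 on every array. Il18 itself read 72.8 and 71.6 in wild type against 87.5 and 77.9 in knockout cells.

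Downstream of the receptors, 0 of 17 tested genes of MyD88 and IRAK signalling were higher and 2 were lower, with a median log2 fold change of -0.06. Of all genes tested, limma called 4.79% higher and 3.50% lower, the shares to set beside this list and those below. Irak3, the kinase-dead family member that holds back receptor signalling, fell from 243 and 236 to 138 and 130.3 (log2 fold change -0.83, limma adjusted p = 4.69e-05), and its adjusted p stayed under the threshold with any array left out. Irak3 is also known from macrophages, whose markers were lower too (9 of 10 tested, summed level 2567 and 2333 in wild type against 1070.4 and 1335 in knockout cells); their part in its fall was not tested. The other was Ikbkb, whose call was lost without either wild-type array (limma adjusted p = 0.169 without replicate 1 and 0.0724 without replicate 2). Myd88, the adaptor itself, had a log2 fold change of -0.07. Among NF-kB feedback genes, 5 of 11 tested were higher and 0 lower, with a median of 0.47: Nfkb2, Nfkbia, Relb, Nfkbie and Nfkbib. The genes not called went both ways. Log2 fold changes were -0.44 for Nfkbid, -0.19 for Nfkbiz and -0.10 for Zc3h12a, against 0.47 for Tnfaip3, 0.47 for Tnip1 and 0.20 for Tnip3. Relb, a noncanonical NF-kB subunit, rose from 195 and 171 to 331 and 323, and Nfkbie, an IkB inhibitor, from 557 and 518 to 966 and 873. There were 3 such genes when wild-type replicate 2 was left out, and 1 gene was also lower without knockout replicate 1.

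Genes that process IL-1 and IL-18 rose in part, where 4.79% of all genes tested were called higher and 3.50% lower. Of 6 tested inflammasome genes, 2 were higher and 0 lower, with a median log2 fold change of 0.31. Casp1, the protease that matures both cytokines, read 189 and 171 in wild type against 463 and 350.0 in knockout cells. Casp4, the caspase of the noncanonical inflammasome, read 328 and 265 in wild type against 1117 and 873 in knockout cells, and Casp4 had the largest rise of all these pathway lists (log2 fold change 1.74, limma adjusted p = 4.69e-22). Both passed with any array left out. Nlrp3 and Nlrc4, inflammasome sensors, were below the filter. Of 6 tested genes on the receptor-shedding list, 1 was higher: Bace2, a membrane aspartyl protease. It read 59.2 and 51.7 in wild type against 143 and 135 in knockout cells. Adam10 and Adam17, metalloproteases that release receptor ectodomains, were not called (log2 fold changes 0.08 and 0.11).

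Genes that accompany these receptors in Treg subsets rose in part as well, again beside 4.79% of all genes tested called higher and 3.50% lower. Of 11 tested genes of ST2-positive tissue Treg cells, 5 were higher and 0 lower, with a median log2 fold change of 0.40: Ccr8, Batf, Prdm1, Rora and Nfil3. Batf, an AP-1 family factor of tissue Treg cells, rose from 414 and 429 to 815 and 708, and Prdm1, which encodes the effector regulator Blimp-1, from 401 and 341 to 692 and 624. The count was 3 with wild-type replicate 1 left out, 2 with wild-type replicate 2 left out and 3 with knockout replicate 1 left out. Of 6 tested genes of the Th1-like list, the setting in which IL-18 receptors are known, 4 were higher (Cxcr3, Tbx21, Ifng and Il12rb1) and 0 lower, with a median of 0.56. The count fell to 1 without wild-type replicate 2 and to 2 without each of the others. Of 4 tested Th17-like genes 2 were higher, Ccr6 and Ahr. Ahr, the aryl hydrocarbon receptor, went from 492 and 459.8 to 986 and 927. Of 7 follicular Treg genes 0 were called by limma in either direction, with a median of 0.09; Bcl6, their defining factor, had a log2 fold change of 0.06.

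**Figure D5:**
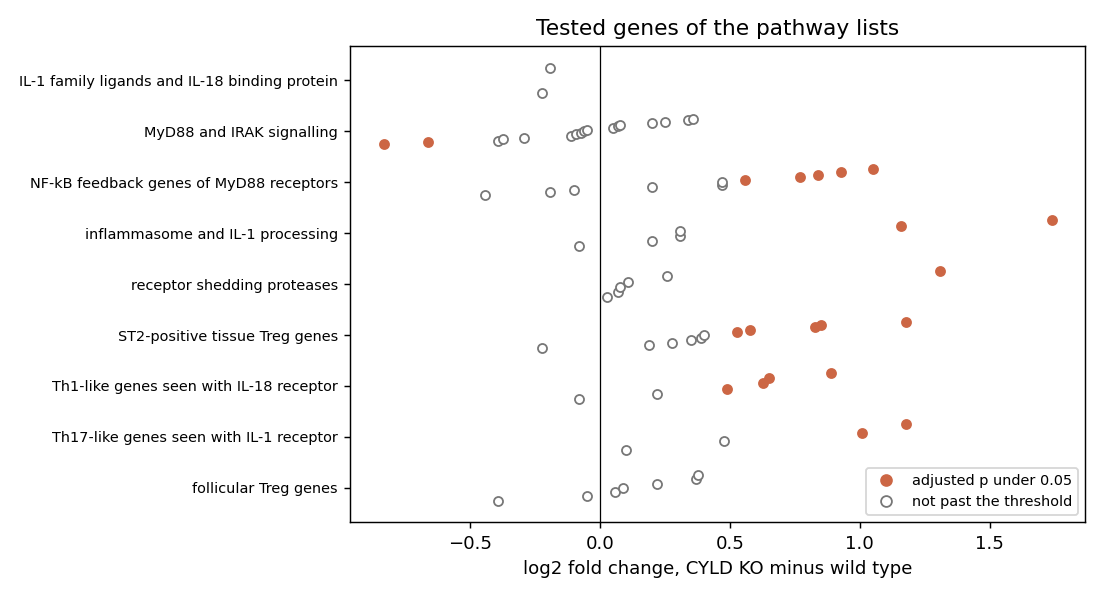
Log2 fold change (horizontal axis, knockout minus wild type) of every tested gene of the pathway lists, 1 row of points per list; filled orange points passed a limma adjusted p under 0.05. Filled points lie to the right in 6 lists, the MyD88 and IRAK list has 2 to the left (-0.83 and -0.66), and the ligand and follicular lists have none.

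Other cells that carry these receptors were looked for by their markers. The sorted cells read high for Treg and T cell genes on all arrays, with Cd3e at 2978 to 3615 and 0 of 7 such markers called by limma. Foxp3 read 2016 and 1881 in wild type against 1697 and 1553 in knockout cells. Both knockout arrays were below both wild-type arrays in 2 of the 7, Foxp3 and Il2ra, against 26.2% of all genes tested. They were above in 2, Ikzf2 and Tnfrsf18, against 22.5% of all genes tested. Neutrophils are a known source of Il1r2: their 12 markers read 44.4 to 114 on all arrays, with 0 of 3 tested called, and their summed level was 814 and 844 in wild type against 821 and 915 in knockout cells. The defining neutrophil genes S100a8 and S100a9 were below the filter on dim genes. NK cells are a known source of Il18rap: of 4 tested markers, 1 was higher (Eomes) and 1 lower (Tyrobp). Eomes, a factor that T cells also use, read 109 and 98.9 in wild type against 297 and 342 in knockout cells. The summed level of all NK markers was 666 and 647 in wild type against 809.6 and 834 in knockout cells. Eomes alone rose by more than this sum, so the summed level of the other NK markers did not rise. That remainder includes the fall of Tyrobp and 4 markers below the filter on dim genes. Among those 4, Gzma was higher on both knockout arrays than on both wild-type arrays, and the rest overlapped. Whether the share of NK cells changed was not tested. Ncr1, the defining NK receptor, read 54.8 to 63.9 and was below the filter. Mast cell and basophil markers summed to 879 and 880.3 in wild type against 906 and 914 in knockout cells, with Kit called higher of 6 tested. Of the markers of ILC2, CD8 T, B and dendritic cells, limma called 0 of 2, 0 of 2, 0 of 3 and 0 of 4 tested, and of stroma and endothelium 1 of 4, Pecam1, which was lower. Macrophage markers moved the other way, as given beside Irak3. Both knockout arrays were below both wild-type arrays in 11 of 12 of them, against 26.2% of all genes tested. The exception was Lyz2, which read 102 and 104 in wild type against 76.1 and 130.1 in knockout cells. Macrophages can also express Il1rn and Il1rap; the part of the macrophage fall in their values was not tested. In a sorted population, more cells that carry a transcript and more transcript per cell cannot be told apart.

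Each call uses 1 variance estimated from the whole table, which gave every gene the same standard error of 0.17. With no such pooling, 0 of 7 genes were called; Il1r2 had an unadjusted p of 9.31e-04 and an adjusted p of 0.214, and Il18rap 0.0568 and 0.399 (limma's linear model with 2 residual degrees of freedom). In that fit 0 of 13956 genes were called, with 1814 at an unadjusted p under 0.05.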

How the data were processed

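RNA of sorted YFP-positive Treg cells was extracted with a column kit and labelled as biotinylated cRNA, per the labels' protocols. What the authors deposited is 1 linear intensity per probe set and array, as judged from the values; the sources used here do not give how arrays were summarised, background-corrected and scaled, and no detection calls were used. Probe sets were named from a 2016 platform annotation: of 35557, 21789 had 1 gene symbol, 1621 several and 12147 none listed. The brightest probe set per gene was kept, values were taken as log2(intensity + 1), and the dimmest 30% of genes by mean log2 value (6.29 or less) were left out. The comparison of knockout with wild type, 2 arrays each, used the limma package (version 3.58.1, under R 4.3.3). Its lmFit model was followed by the eBayes step. P-values were adjusted by Benjamini-Hochberg over all 13956 genes, with a threshold of 0.05. The procedure was also run on simulated data. No result of that run is given here, so it says nothing about whether 1 shared variance holds for these arrays. No probe set was named Il1r1, so the planned ratio of Il1r2 to Il1r1 was not computed.

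All 9 members, the pathway and marker lists and the rules were chosen with earlier results of these data known. Named genes are the members, up to 4 called genes of each pathway list by size of change (Nfkbib and Nfil3, the fifth of their lists, were named to complete the counts), tested ligands, neighbours of the receptor run and the brightest or defining markers; other genes given with values, among them those that did not pass, were picked after their values were seen. Sequences are RefSeq's, build GRCm38.p6. Genome coordinates of the arrays' probes were not used. Alternatives covered scaling, pseudocount, filter, variance model, array weights, probe set choice, the replicate number as a block, thresholds and leaving out each array. The number of arrays limits the precision.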

Additional observations from a re-analysis of the deposited data

How the results depend on the processing

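Under 18 other settings, 2 members were higher and 0 lower in all but 2 of them. With no pooling of variances 0 were higher, and without single arrays the count was 2 to 3 (3 without knockout replicate 2, where Il18r1 was added). Il1r2 and Il18rap remained the called genes in every other setting. The log2 ratio of Il1r2 to Il1rap ran from 2.38 to 2.50 with single arrays left out and moved no further with other scalings or pseudocounts than from 2.39 to 2.46. Differences near 0 changed sign without passing: Il1rap was at 0.02 with quantile normalization and with median centring, and with single arrays left out it ran from -0.14 to 0.13 (0.05 when wild-type replicate 1 was left out, 0.13 when knockout replicate 2 was) and Il1rl2 from -0.16 to 0.03. Il1rn and Sigirr were called in 0 of 16 fits each; the lowest adjusted p was 0.0792 and 0.218. In the fit with a replicate block, 2 members were higher, with log2 fold changes of 2.44 for Il1r2 and 1.08 for Il18rap; same-numbered arrays did not deviate together (r = -0.09 across genes), so the numbers were not taken as pairs. Il1rl2 was left out by the filter at the median. Intensities close to the filter limit what can be said of Il1rl2, and those below it of the 7 ligands not tested.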
